A study of Ovis aries with 115 samples.

Results

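Cervical gene expression at the follicular phase was compared between synchronised and naturally cycling ewes of the Norwegian White Sheep (NWS). The members were the libraries whose labels give the breed as Norwegian and the phase as follicular, with the cycle as induced (10 libraries, called synchronised here) or natural (10 libraries), 20 of the 115 libraries of the series. RNA of the cervix, taken after slaughter, was sequenced from 4 sheep breeds, with 1 library per sample. Synchronised ewes were multiparous and 4 to 5 years old, carried a vaginal sponge with the progestagen flugestone acetate for 14 days, received equine chorionic gonadotrophin at its removal, and gave tissue 54 to 56 hours later. The follicular phase was judged on their ovaries. The age, parity and time of sampling of the natural ewes are not given in the sources used here, so whether the groups differ in these as well as in the cycle is not known. Total counts ranged from 14461289 to 19072737 in the synchronised libraries (median 17166688) and from 14050524 to 21404762 in the natural ones (median 18045054), and the mean totals did not differ beyond the spread between libraries (permutation test, two-sided, p = 0.3124).

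In the follicular phase progesterone falls, oestradiol rises, and the cervix softens and makes the mucus through which sperm must pass. A progestagen sponge holds the cycle in a state like the luteal phase, and its removal with a gonadotrophin starts follicle growth in all ewes at once. The cervix is a mixed tissue of mucus-secreting epithelium, connective tissue, smooth muscle, vessels and leucocytes, and in bulk RNA fewer cells of a type and less RNA per cell cannot be told apart.

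Several libraries stood apart, and calls or directions that change without them are given both ways. Natural replicate 5 was the highest of the 20 libraries for 4008 of 14295 genes and the lowest for 3843, against 178 to 1697 and 165 to 1678 in the 18 libraries other than it and synchronised replicate 9. Synchronised replicate 9 had 1384 and 1851, near the 1697 and 1678 of natural replicate 3. The summed level of 5 smooth muscle markers was 22934 CPM (the count scaled to the normalised library size) in natural replicate 5, 1272 to 8159 in the other natural and 2691 to 9155 in the synchronised libraries. The summed level of 9 epithelial markers in it was 787 CPM, against 1149.6 to 2013 in the other natural libraries. MUC5B, a gel-forming mucin of the cervical glands, was at 1.15 CPM in natural replicate 5 and 0.757 CPM in synchronised replicate 9, in groups with medians of 49.9 and 72.6 CPM. COX-1, a gene of the mitochondrial genome, was at 32.3 and 37.8 CPM in natural replicates 10 and 4, within the 25.4 to 48.5 CPM of the 27 Fur libraries and far from the 803 to 2531 CPM of the other 26 NWS libraries. No other gene of 15459 separated those 26 from the Fur libraries, so the breed label of this pair could not be checked further. GREB1, a gene induced by oestrogen, had a median of 317 CPM in the synchronised and 191 CPM in the natural libraries, against 33.9 CPM in 8 luteal NWS libraries, although both follicular groups overlapped with the luteal one (5.89 to 145 CPM).

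Few genes differed between the cycles when all 20 libraries were used. Of 14295 genes tested, 2 were differentially expressed genes (DEGs, an adjusted p under 0.05 and a fold change above 1.5), which is 0.014% of the genes, and both had lower expression in synchronised NWS. Test values come from edgeR's quasi-likelihood test with Benjamini-Hochberg adjustment over all 14295 genes unless another is named, and fold changes are synchronised over natural. The DEGs were CDK3, a cyclin-dependent kinase, and ENSOARG00000018936, an identifier to which no name could be assigned here. At an unadjusted p under 0.05, 1118 genes (7.82%) were lower and 741 genes (5.18%) were higher in synchronised ewes. With the Wald test of DESeq2, given the same counts and run at default settings that replace outlying ones, 34 higher and 61 lower DEGs were found (0.665% of genes). The number of DEGs thus depended on the tool.

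CDK3 was measured at 12.9 to 21 CPM (median 17.3) in the synchronised and 22.2 to 35.0 CPM (median 26.5) in the natural libraries. All 10 synchronised libraries lay below all 10 natural ones, and no other gene (1 of 14295, 0.007%) had groups without overlap. CDK3 fell by 0.65 on the log2 scale (SE 0.11, adjusted p = 0.0277), a level 1.57-fold lower. It kept its sign in all 20 fits that left out 1 library and was called in 9 of them, with adjusted p between 0.0124 and 0.0899. The call was lost without synchronised replicate 3, 4, 5, 6, 8, 9 or 10, or without natural replicate 2, 6, 8 or 10. In luteal NWS libraries CDK3 was at 18.9 to 42.6 CPM (median 33.8), so the synchronised follicular libraries had the lowest median of the 3 NWS groups.

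ENSOARG00000018936 was at 11.2 to 27.7 CPM (median 20.6) in the synchronised and 24.8 to 51.6 CPM (median 37.2) in the natural libraries. All but 1 synchronised library lay below every natural one. ENSOARG00000018936 fell by 0.94 on the log2 scale (SE 0.14, adjusted p = 0.0192), a level 1.92-fold lower. It was called in 14 of the 20 fits that left out 1 library (adjusted p from 0.00488 to 0.0642) and not without synchronised replicate 4, 5, 9 or 10 or natural replicate 6 or 10. Its median in luteal NWS libraries was 41.1 CPM (19.4 to 55.1), near that of the natural follicular group.

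**Figure D1:**
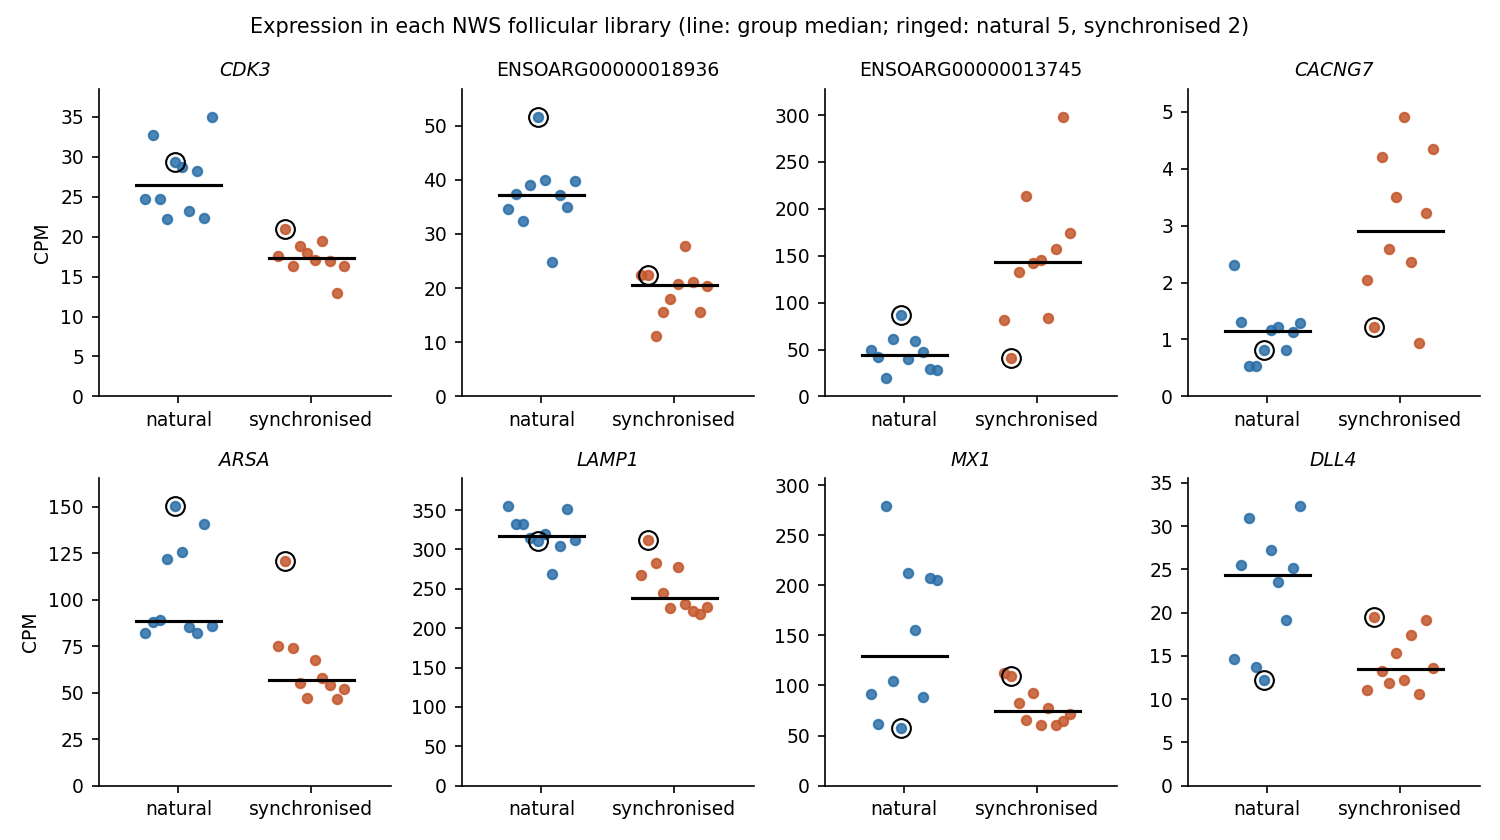
CPM of 8 genes in each NWS follicular library, with natural libraries in blue and synchronised libraries in orange; each point is 1 library, lines are group medians, and rings mark natural replicate 5 and synchronised replicate 2. The groups do not overlap for CDK3 (12.9 to 21 against 22.2 to 35.0 CPM), and the ringed synchronised library is the highest of its group for ARSA (121 CPM) and LAMP1 (312 CPM).

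By edgeR, with all 20 libraries in the fit of both NWS groups and the filter of 1 CPM, no gene was a DEG with higher expression in synchronised NWS. A fit of all 8 follicular groups of the 4 breeds gave 28 such DEGs. Of the higher genes in the fit of both NWS groups, ENSOARG00000013745 had the smallest p. It also has no name here and was chosen after its values were seen. It was at 40.6 to 298 CPM (median 143) in the synchronised and 19.4 to 86.7 CPM (median 44.6) in the natural libraries. Of the synchronised libraries, 7 lay above every natural one, and the log2 fold change was 1.65 (SE 0.29, adjusted p = 0.0594 by edgeR and 4.45e-05 by the Wald test of DESeq2). ENSOARG00000013745 passed the adjusted threshold without natural replicate 5 (log2 fold change 1.81, adjusted p = 0.0124) and was a DEG in 4 of the 20 fits that left out 1 library. Luteal NWS libraries had 23.9 to 63.3 CPM (median 42.1), near the natural follicular level.

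Among genes with a name, CACNG7, an auxiliary subunit of voltage-gated calcium channels, had the smallest p of the higher genes. CACNG7 was at 0.946 to 4.91 CPM (median 2.9) in the synchronised and 0.526 to 2.31 CPM (median 1.15) in the natural libraries, a low level at which 7 synchronised libraries exceeded every natural one. Its log2 fold change was 1.36 (SE 0.30, adjusted p = 0.132 by edgeR and 0.00816 by the Wald test), and 1.34 without natural replicate 5 (adjusted p = 0.0354). AGAP2, a GTPase-activating protein, had medians of 5.9 CPM (2.78 to 8.66) in synchronised and 3.3 CPM (2.45 to 5.07) in natural libraries. Its log2 fold change was 0.71 (SE 0.19, adjusted p = 0.182 by edgeR and 0.033 by the Wald test), and 0.79 without natural replicate 5 (adjusted p = 0.0354). FUT4, a fucosyltransferase that acts on glycoproteins, had a log2 fold change of 0.58 (SE 0.21, adjusted p = 0.255). THBS2 (ENSOARG00000005037), a matrix glycoprotein, stood at 0.59 (SE 0.25, adjusted p = 0.319) and ARID3A, a DNA-binding protein, at 0.39 (SE 0.16, adjusted p = 0.321), and neither passed in any fit that left out 1 library. Names were available for 1273 of the tested genes, mostly from lists of breed differences in the study, so named genes are not a random sample. Those lists compare synchronised follicular ewes of Suffolk with those of Belclare, Fur and NWS. Of these 1273 genes, 14.7% were lower and 1.02% higher at an unadjusted p under 0.05, with a median log2 fold change of -0.13 against -0.03 for all genes tested.

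The number of DEGs turned on natural replicate 5. Without it 206 genes (1.44% of 14295) were DEGs, 146 higher and 60 lower in synchronised NWS, and 507 genes had an adjusted p under 0.05. All 206 had the same sign with the 20 libraries together, but the fits share all other libraries, so this was largely fixed in advance. Without synchronised replicate 2 there were 40 DEGs, 11 higher and 29 lower, and leaving out any other library gave 0 to 5. Leaving out natural replicate 5 together with synchronised replicate 9 gave 33 DEGs, 22 higher and 11 lower, of which 32 were among the 206. Without natural replicates 4 and 10, the pair of low COX-1, there were 0 DEGs by edgeR, with 1613 genes at an unadjusted p under 0.05.

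**Figure D2:**
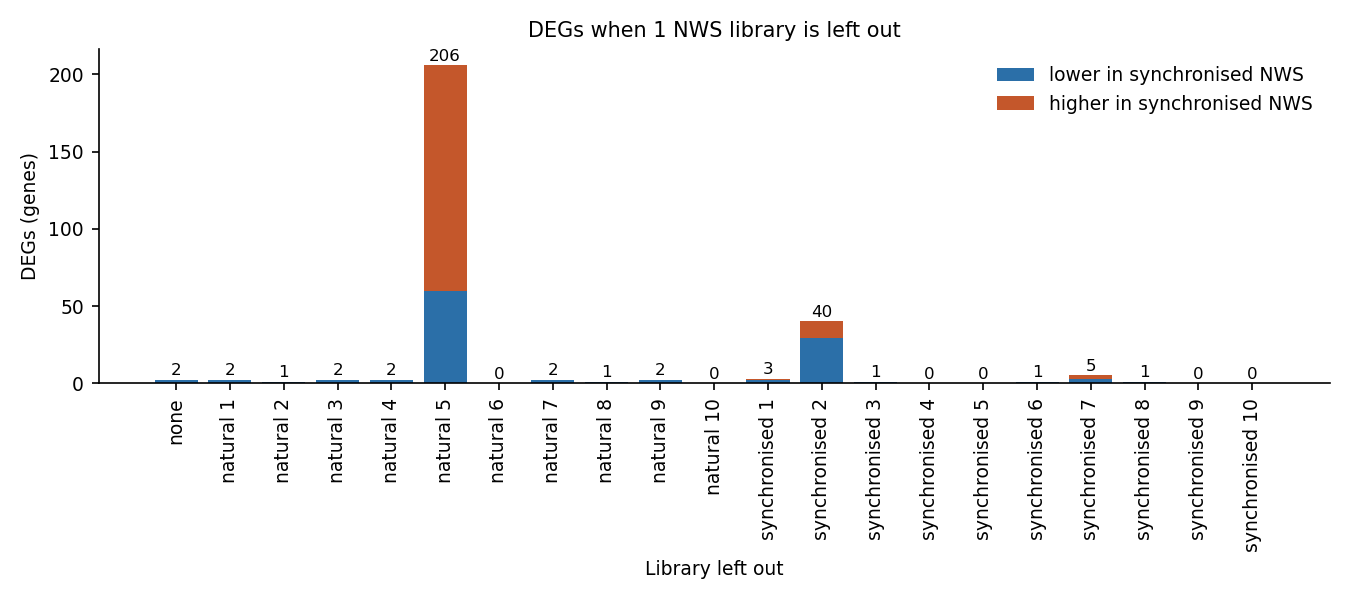
Number of DEGs between synchronised and natural NWS when 1 library is left out, with lower genes in blue and higher genes in orange; the first bar uses all 20 libraries. The count is 206 without natural replicate 5 and 40 without synchronised replicate 2, against 2 with all libraries and 0 to 5 without any other.

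Of the 206 DEGs without natural replicate 5, 16 had a name. CACNG7 and AGAP2 were higher, and the other 14 were lower in synchronised NWS. They were CDK3, the lysosomal enzymes IDUA, ARSA and MAN2B2 (ENSOARG00000010586), the arylsulfatase ARSD, the interferon-responsive genes MX1 and TMEM140, the NOTCH ligand DLL4, the ion transporter SLC4A11, the homeobox genes HOXB3 and HOXB8, the death receptor TNFRSF25, RTN1, a protein of the endoplasmic reticulum, and PEBP4. The lower log2 fold changes in that fit lay between -1.35 (ARSD, SE 0.29, adjusted p = 0.0334) and -0.59 (IDUA, SE 0.13, adjusted p = 0.0334). HOXB8, with -0.61 (SE 0.13, adjusted p = 0.0334), and HOXB3, with -0.60 (SE 0.15, adjusted p = 0.0395), were at -0.54 and -0.51 with all libraries. PEBP4 was at 28.9 to 107 CPM (median 55.2) in the synchronised and 48.3 to 194 CPM (median 124) in the natural libraries, and 7 natural libraries exceeded every synchronised one.

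Lysosomal genes had the largest share of lower members among the 16 gene lists, cell type marker sets apart. Lysosomes digest material taken up or made by a cell, with acid hydrolases, membrane proteins and a proton pump that keeps them acid. Of 41 identifiers tested, 18 (43.9%) were lower and 0 were higher at an unadjusted p under 0.05, against 7.82% lower among all genes and 13.7% lower among named genes outside the list. None passed the adjusted threshold by edgeR with all 20 libraries in the fit of both NWS groups. In the edgeR fit of the 8 follicular groups, ARSA, IDUA, LAMP1, GLB1, CTSF, PSAP and MAN2B2 (ENSOARG00000010586) passed it in NWS. In such a fit over the 14295 genes, 0.525% of all genes were lower by this rule. By the Wald test of DESeq2, 8 members passed (0.616% of all genes were lower by this rule). They were MAN2B2 (ENSOARG00000010586), ARSA and CTSF, which were DEGs, and LAMP1, IDUA, ATP6AP1, GRN and PSAP, whose fold changes were below 1.5. The median log2 fold change of the list was -0.26, and 36 of the 41 estimates were below 0. Across the 20 fits that left out 1 library, 16 to 23 members were lower and 0 higher at that p, and the median lay between -0.40 and -0.22. The highest count, 23, and 9 members with an adjusted p under 0.05 came without synchronised replicate 2, where 9.68% and 0.245% of all genes were lower by these rules. Without natural replicate 5, 20 members were lower at an unadjusted p under 0.05 (9.95% of all genes were) and 5 at an adjusted p under 0.05 (0.797% of all genes were).

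Hydrolases that cut sugars and lipids were among the lysosomal genes of smallest p. MAN2B2 (ENSOARG00000010586), an alpha-mannosidase and 1 of 3 identifiers with this name, was at 0.782 to 3.12 CPM (median 1.52) in the synchronised and 1.58 to 6.5 CPM (median 3.77) in the natural libraries. The log2 fold change of this MAN2B2 identifier was -1.30 (SE 0.28, adjusted p = 0.132), and the other MAN2B2 identifiers had -0.66 (SE 0.25) and -0.56 (SE 0.24). IDUA, which degrades heparan and dermatan sulphate, was at 32.8 to 70.4 CPM (median 48.0) in synchronised and 63.1 to 82.0 CPM (median 70.3) in natural libraries, with 9 synchronised libraries below every natural one (log2 fold change -0.58, SE 0.13, adjusted p = 0.141). ARSA, which degrades sulphatide, was at 46.5 to 121 CPM (median 56.6) against 82.0 to 150.4 CPM (median 88.8). For ARSA too, 9 synchronised libraries lay below every natural one, and the log2 fold change was -0.70 (SE 0.17, adjusted p = 0.177). GLB1, the lysosomal beta-galactosidase, was at 107 to 331 CPM (median 152) against 198 to 310.3 CPM (median 260.4), with 8 synchronised libraries below every natural one and 1 above them all (log2 fold change -0.65, SE 0.19, adjusted p = 0.184).

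Proteases and membrane proteins of the lysosome followed. CTSF and CTSK, cysteine cathepsins, had log2 fold changes of -0.83 (SE 0.23) and -0.54 (SE 0.16), with adjusted p of 0.184 and 0.186. LAMP1, the abundant membrane glycoprotein that marks lysosomes, was at 218 to 312 CPM (median 238) in the synchronised and 269 to 355 CPM (median 318) in the natural libraries. For LAMP1, 7 synchronised libraries lay below every natural one, with a log2 fold change of -0.37 (SE 0.08, adjusted p = 0.14) and, without natural replicate 5, of -0.36 (adjusted p = 0.0334). ATP6AP1, an accessory subunit of the proton pump, was at 105 to 135 CPM against 131 to 178 CPM, with 8 synchronised libraries below every natural one (log2 fold change -0.25, SE 0.07, adjusted p = 0.184). PSAP, the precursor of the saposins that help lipid hydrolases, had -0.40 (SE 0.12, adjusted p = 0.184), and GPNMB, a glycoprotein of lysosome-rich cells, had -1.38 (SE 0.51, adjusted p = 0.265). NPC1, a cholesterol transporter, had the highest estimate of the list, 0.26, and LGMN, a protease, was at -0.01.

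Within the synchronised group the lysosomal genes were not uniform. The median over the list of log2(CPM + 1), centred for each gene on its mean over the 20 libraries, was -0.37 to 0.33 in the synchronised libraries and -0.01 to 0.41 in the natural ones. Synchronised replicate 2 had the 0.33, and the next highest of its group was at -0.05. It was the highest synchronised library for 24 of the 41 genes, with ARSA at 121 CPM, PSAP at 1701 CPM and GPNMB at 60.5 CPM. Without the pair of low COX-1, 16 of the 41 lysosomal genes were lower at an unadjusted p under 0.05 (6.83% of all genes were), and without natural replicate 5 and synchronised replicate 9 the number was 17 (9.58% of all genes).

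**Figure D3:**
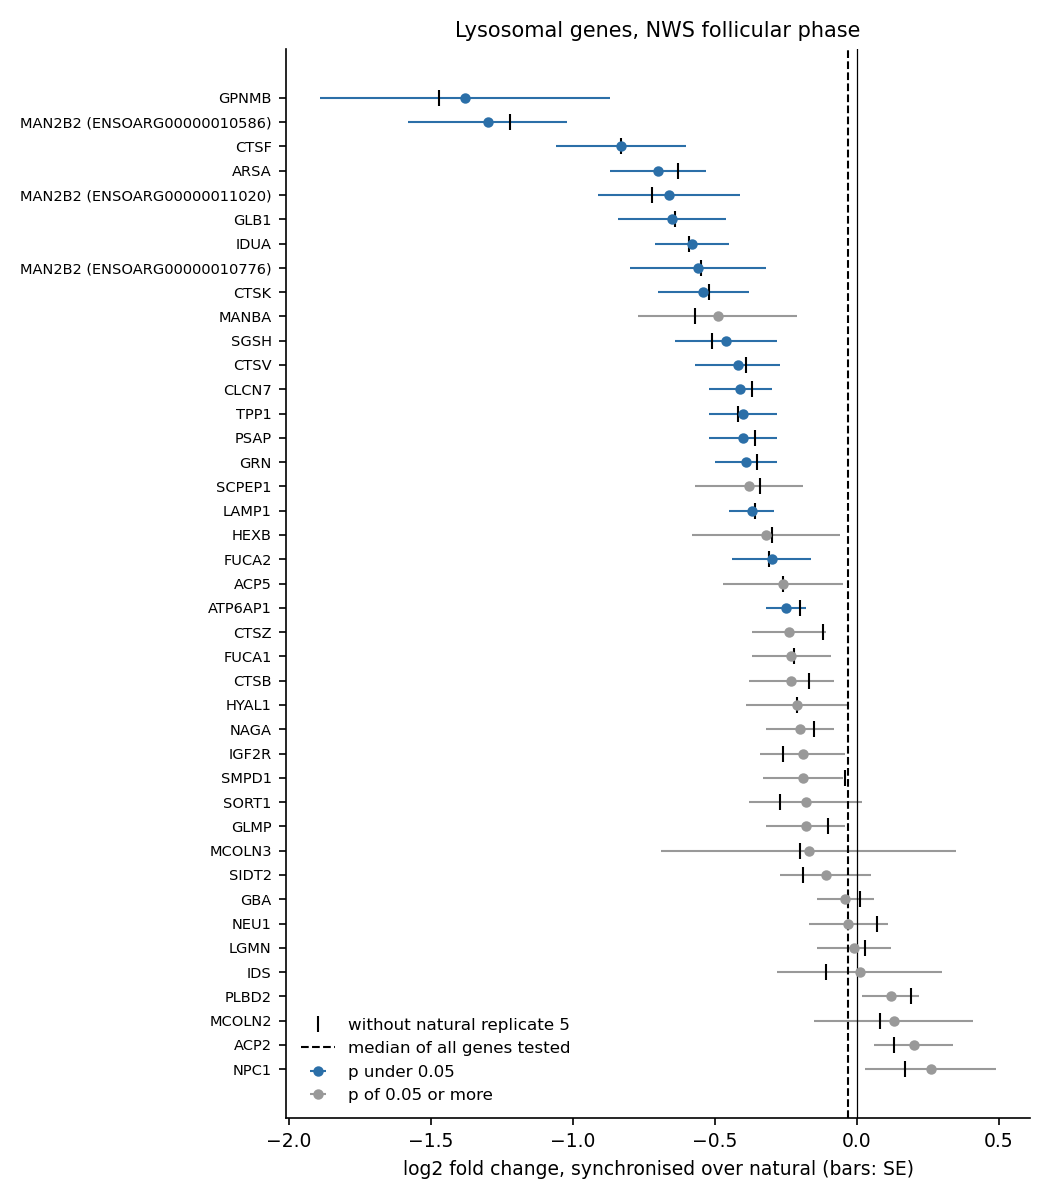
Log2 fold change of the 41 lysosomal identifiers, synchronised over natural NWS, with bars for the SE; blue points are at an unadjusted p under 0.05, ticks are the estimates without natural replicate 5, and the dashed line is the median of all genes tested (-0.03). The estimates run from -1.38 (GPNMB) to 0.26 (NPC1), and 36 of 41 are below 0.

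Interferon-responsive genes, which cells switch on against viruses, had 28 negative estimates of 32 (87.5%, against 69.3% of all named genes). Of the 32, 7 (21.9%) were lower, against 14.7% of named genes and 7.82% of all genes, and 0 higher at an unadjusted p under 0.05, with a median log2 fold change of -0.33, and none was a DEG by edgeR or by the Wald test of DESeq2. The number lower was 3 without synchronised replicate 5, 6 or 8 or natural replicate 6 or 9, and 11 without synchronised replicate 7. MX1, an antiviral GTPase, was at 60.4 to 112 CPM (median 74.7) in the synchronised and 57.6 to 279 CPM (median 129) in the natural libraries. The MX1 groups overlapped, 5 natural libraries exceeded every synchronised one, and the log2 fold change was -0.89 (SE 0.26, adjusted p = 0.184). TMEM140 stood at -0.85 (SE 0.24, adjusted p = 0.184), ISG15, a ubiquitin-like modifier, at -0.87 (SE 0.39, adjusted p = 0.355) and OAS2, an antiviral RNA sensor, at -0.91 (SE 0.42, adjusted p = 0.369).

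Endothelial markers had 6 negative estimates of 6, in a set of named genes of which 69.3% were negative. Of the 6, 3 (50%) were lower at an unadjusted p under 0.05, against 14.7% of named genes and 7.82% of all genes. The median log2 fold change of the 6 was -0.36. Their summed level was 455 to 843 CPM in the synchronised and 629.9 to 970.1 CPM in the natural libraries. DLL4, the NOTCH ligand of sprouting vessels, was at 10.6 to 19.5 CPM (median 13.5) against 12.2 to 32.3 CPM (median 24.4), and 6 natural libraries exceeded every synchronised one (log2 fold change -0.65, SE 0.18, adjusted p = 0.184). VWF, a clotting factor made by endothelium, had -0.43 (SE 0.14, adjusted p = 0.219). Most other marker sets had mainly negative estimates too, 6 of 6 for fibroblasts (summed medians of 1828 CPM in synchronised and 2226 CPM in natural libraries) and 8 of 9 for epithelium. The counts were 4 of 5 for smooth muscle, 4 of 5 for oviduct or endometrium gland genes and 3 of 3 for liver or blood plasma proteins (9.84 and 18.4 CPM). The smooth muscle count turned on natural replicate 5. Without it ACTG2, DES, POPDC2 and ACTC1 had positive estimates (0.32, 0.24, 0.21 and 1.36), and ASB2 was at -0.00. The summed medians of smooth muscle markers were 6101 CPM in synchronised and 5527 CPM in natural libraries. Leucocyte markers had only 1 negative estimate of 4, with a median log2 fold change of 0.18 and summed medians of 53.8 CPM in synchronised and 47.7 CPM in natural libraries. The median log2 fold change of the plasma protein genes was -0.69, and 2 of the 3 (66.7%) were lower at an unadjusted p under 0.05, beside the same 14.7% and 7.82%. The part of these markers in the lysosomal and other differences was not tested.

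No listed gene known to respond to oestrogen or progesterone passed the test, and only 17 of the 24 symbols listed could be named and tested. None of 17 was at an unadjusted p under 0.05 by edgeR, or a DEG by DESeq2. Their median log2 fold change was 0.19, against -0.13 for named genes and -0.03 for all genes. Of the 17 estimates 5 were negative (29.4%, against 69.3% of named genes). GREB1 had overlapping groups (37.5 to 446 CPM in synchronised and 56.1 to 635 CPM in natural libraries) and a log2 fold change of 0.22 (SE 0.40, adjusted p = 0.854). OXTR, the oxytocin receptor, was at 0.66 to 65.1 CPM (median 3.56) against 0.855 to 12.8 CPM (median 3.47), and the 65.1 CPM came from synchronised replicate 9. The log2 fold change of OXTR was 1.17 (SE 0.68, adjusted p = 0.469), and it was -0.31 (SE 0.44) without that library. DESeq2, whose default settings replace outlying counts, gave -0.30 with its Wald test. Of 7 steroid receptors and steroid enzymes, only PAQR6, a membrane progestin receptor, was at an unadjusted p under 0.05 (log2 fold change -0.52, SE 0.18, adjusted p = 0.239). Of 8 prostaglandin and oxytocin genes, the phospholipases PLA2G6 (-0.46, SE 0.14, adjusted p = 0.204) and PLA2G10 (-0.82, SE 0.34, adjusted p = 0.316) were, both lower. That is 25% of the 8, against 14.7% of named genes and 7.82% of all genes. PTGS1, a cyclooxygenase, was at 20.3 CPM (11.1 to 52.5) and 23.7 CPM (10.8 to 38.5) in the medians of the synchronised and natural groups (log2 fold change -0.02, SE 0.25).

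Mucins, which form the cervical mucus, overlapped widely between the cycles. MUC5AC was at 2.67 to 54.8 CPM (median 6.71) in the synchronised and 0.779 to 17.5 CPM (median 5.79) in the natural libraries. The highest value of MUC5AC came from synchronised replicate 9, and the log2 fold change was 1.30 (SE 0.57, adjusted p = 0.345), or 0.79 (SE 0.52, adjusted p = 0.604) without that library. MUC5B had medians of 72.6 and 49.9 CPM and a log2 fold change of 0.15 (SE 0.59), and MUC16, a membrane mucin, had medians of 761 and 607 CPM and 0.18 (SE 0.27). Of 15 mucin and glycosylation genes, 2 (MUC5AC and FUT4) were higher and 1 (CHST7, a sulphotransferase, -0.62, SE 0.25, adjusted p = 0.318) was lower at an unadjusted p under 0.05. The higher share was 13.3%, against 1.02% of named genes and 5.18% of all genes, and the lower share 6.67%, against 14.7% and 7.82%. Of 15 genes of glandular secretions, 1 was lower, the lipid carrier APOE (-0.60, SE 0.18, adjusted p = 0.205), which was at 757 CPM in natural replicate 5 and had -0.41 without it.

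Epithelial, matrix and muscle genes gave shares of lower members closer to the background than the lysosome list did. At an unadjusted p under 0.05, 14.7% of named genes and 7.82% of all genes were lower. Of 29 genes of epithelial junctions and keratins, 6 (20.7%) were lower, among them the adhesion molecule NECTIN2 (-0.30, SE 0.09, adjusted p = 0.188) and the tight junction protein CLDN7 (-0.35, SE 0.14, adjusted p = 0.304), and the count was 3 without synchronised replicate 9. Of 24 genes of epithelial ion and water transport, 3 (12.5%) were lower, led by SLC4A11 (-1.08, SE 0.29, adjusted p = 0.177). The extracellular matrix list had members on both sides, 5 lower (13.2%) and 4 higher (10.5%) of 38. The higher share was above that of all genes (5.18%) and of named genes (1.02%), and 3 of the 4 were identifiers of THBS2. MMP2, a gelatinase, was at 278 to 622 CPM (median 391) in the synchronised and 388 to 963 CPM (median 576) in the natural libraries (log2 fold change -0.48, SE 0.17, adjusted p = 0.245), while the 3 THBS2 identifiers had 0.59 to 0.61. ACTG2 and DES, smooth muscle actin and desmin, had log2 fold changes of -0.16 (SE 0.41) and -0.21 (SE 0.34), which were 0.32 and 0.24 without natural replicate 5, where they reached 9538 and 13280.2 CPM. Neither sign passed a test, and of 13 smooth muscle and contraction genes only HRC, a calcium-binding protein of the sarcoplasmic reticulum, was lower at an unadjusted p under 0.05 (-0.76, SE 0.23, adjusted p = 0.205).

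Leucocyte genes showed no difference between the cycles that passed the test. Of 19 neutrophil and acute inflammation genes, 2 (10.5%) were lower at an unadjusted p under 0.05, against 14.7% of named genes and 7.82% of all genes. CD177, a neutrophil surface glycoprotein, was at 0 to 4.99 CPM (median 2.89) in the synchronised and 0.5 to 29.1 CPM (median 5.45) in the natural libraries, with a log2 fold change of -1.91 (SE 0.64, adjusted p = 0.234). Of 26 lymphocyte genes, 3 (11.5%) were lower, led by TNFRSF25 (-0.74, SE 0.18, adjusted p = 0.177). Of 26 WNT and NOTCH genes, 3 (11.5%) were lower (DLL4, DTX1 and TLE6). Of 17 circadian clock and 13 mitochondrial genome symbols listed, only 3 and 2 could be named and tested, and none of these was at an unadjusted p under 0.05. The steroid and muscle lists were also tested only in part, 7 of 20 and 13 of 28 symbols. No list held a DEG by edgeR with all 20 libraries in the fit of both NWS groups. The Wald test of DESeq2 called SLC4A11, TNFRSF25 and the 3 lysosomal genes. In the edgeR fit of the 8 follicular groups, list members that passed both limits in NWS included SLC4A11, ARSA, GLB1, CTSF and MAN2B2 (ENSOARG00000010586). Leaving out 1 library moved the number lower to between 1 and 4 for neutrophil genes, 2 and 7 for lymphocyte genes, 2 and 5 for ion transport, and 3 and 8 for the extracellular matrix. Of 29 genes taken from the breed lists of the study, 24 were tested, 0 were DEGs by edgeR or by the Wald test of DESeq2 (smallest adjusted p = 0.234 by edgeR), and at an unadjusted p under 0.05 CD177, EGFL6 and CLGN were lower and MUC5AC was higher. EGFL6, a secreted matrix protein, had -0.82 (SE 0.39) and CLGN, a chaperone of the endoplasmic reticulum, had -0.80 (SE 0.34).

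**Figure D4:**
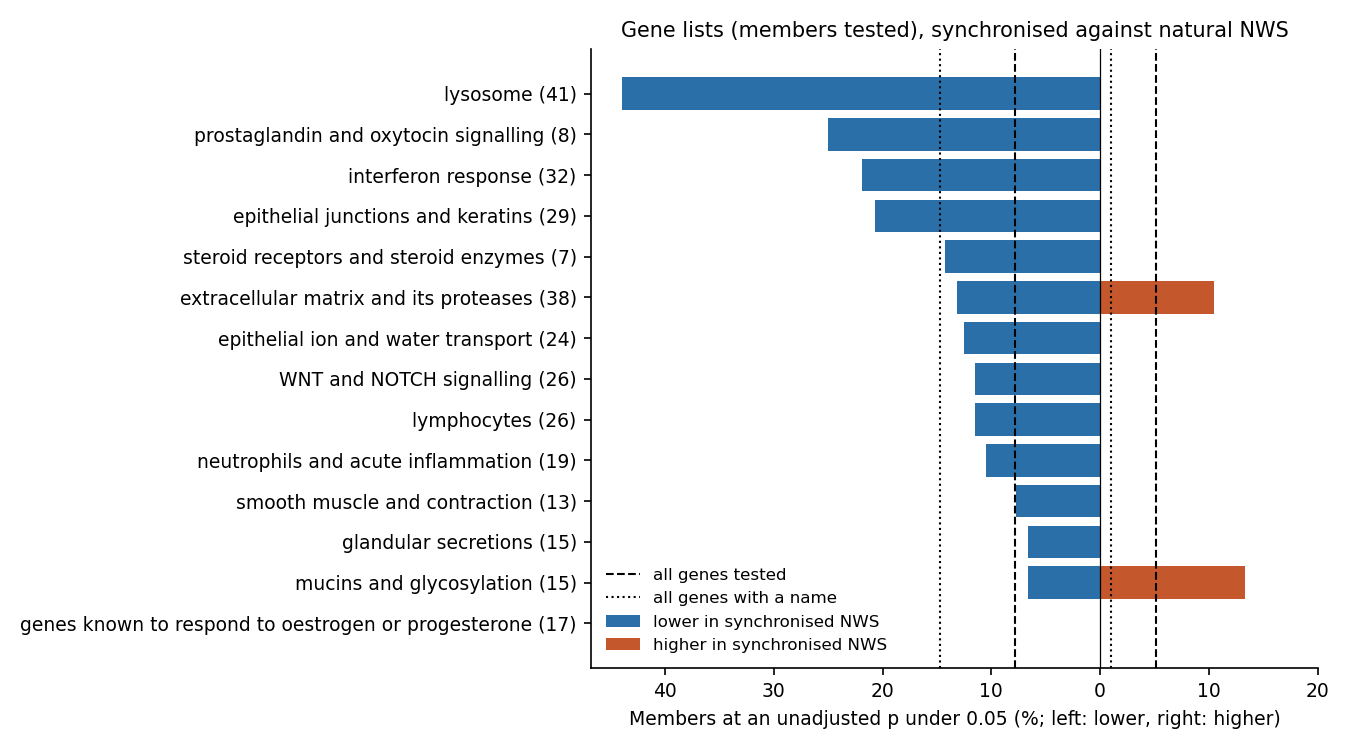
Share of the members of each gene list (number tested in brackets) that were lower (blue, left) or higher (orange, right) in synchronised NWS at an unadjusted p under 0.05, for lists with 5 or more members tested. Dashed lines mark all genes tested (7.82% lower, 5.18% higher) and dotted lines all genes with a name (14.7% and 1.02%), and the lysosome list reaches 43.9%.

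The cycle effect of NWS was then set against that of the other breeds, each with its own synchronised and natural libraries, in 1 fit of the 8 follicular groups over 15274 genes. A positive difference is a larger log2 fold change in NWS, and the 3 differences share the NWS libraries. Against Fur, the other Norwegian breed, 0 genes differed at an adjusted p under 0.05 by edgeR, with 686 at an unadjusted p under 0.05. Against Belclare 1 gene (0.00655%) differed, and against Suffolk 331 genes (2.17%) differed, 231 with a positive and 100 with a negative difference. The count against Suffolk was 1 when only the 4 groups of the NWS and Suffolk breeds were fitted, 206 with the replicate number as a block, 1439 without NWS natural replicate 5, 106 without NWS synchronised replicate 9 and 236 without the natural pair of low COX-1.

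ENSOARG00000013745 had the smallest p of a difference against both Irish breeds. Its log2 fold change in this fit was 1.65 (SE 0.31, adjusted p = 0.0111) in NWS and 1.70 (SE 0.33, adjusted p = 0.00406) in Fur, but -0.83 (SE 0.31, adjusted p = 1) in Belclare and -1.0 (SE 0.32, adjusted p = 0.192) in Suffolk. The difference for ENSOARG00000013745 was 2.48 (SE 0.44, adjusted p = 0.00482) against Belclare and 2.66 (SE 0.44, adjusted p = 0.00119) against Suffolk, and both passed also in the fits of 4 groups (adjusted p = 0.0495 and 0.0177). In Fur it was at 49 to 147 CPM (median 108) in synchronised and 19.6 to 53.6 CPM (median 29) in natural libraries, an order like that of NWS. CDK3 had a difference of -0.64 (SE 0.22, adjusted p = 0.096) against Suffolk and of -0.26 (SE 0.22, adjusted p = 0.975) against Fur, and neither passed.

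Lysosomal genes were among those that differed from Suffolk. Of the 41, 8 had a negative and 0 a positive difference at an adjusted p under 0.05, against 0.655% of all genes with a negative one, and the median difference of the list was -0.53 against -0.02 for all genes. GLB1 had -0.65 (SE 0.17, adjusted p = 0.0411) in NWS and 0.43 (SE 0.18, adjusted p = 0.33) in Suffolk, a difference of -1.08 (SE 0.24, adjusted p = 0.0144). ARSA had -0.70 (SE 0.16, adjusted p = 0.0268) in NWS and 0.26 (SE 0.17, adjusted p = 0.603) in Suffolk, a difference of -0.96 (SE 0.23, adjusted p = 0.0192). LAMP1 differed by -0.52 (SE 0.12, adjusted p = 0.0179) and CTSK by -0.97 (SE 0.25, adjusted p = 0.0257). In the fit of the 4 groups alone none of the 41 passed by edgeR, with 23 negative at an unadjusted p under 0.05 (6.44% of all genes were), and the median difference was -0.54. The 8 became 4 without NWS synchronised replicate 9 (GLB1, ARSA, LAMP1 and PSAP, with CTSK at an adjusted p of 0.0543) and 4 without the natural pair of low COX-1. Against Fur the median difference of the list was -0.03, and none of the 41 had an unadjusted p under 0.05 with a negative sign (3.18% of all genes did). Against Belclare it was -0.39, with 19 negative at an unadjusted p under 0.05 (5.32% of all genes were) and none at an adjusted one.

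Beyond the lysosome, the named genes of smallest p against Suffolk were AC027796.3, a gene known only by a clone name (difference -0.82, SE 0.18, adjusted p = 0.013), WDR45, a protein of autophagosome formation (-0.66, SE 0.15, adjusted p = 0.0171), UCP2, a mitochondrial carrier (-1.39, SE 0.33, adjusted p = 0.0171), and PLA1A, a phospholipase (4.71, SE 1.11, adjusted p = 0.0171). For PLA1A single libraries were far above their groups: synchronised NWS libraries ran from 0.175 to 112 CPM with a median of 1.32, and natural Suffolk libraries from 1.5 to 414 CPM with a median of 9.8. Without synchronised replicate 9, the library at 112 CPM, the log2 fold change of PLA1A within NWS turned from 2.00 to -1.44 (SE 0.57, fit of both NWS groups), and its difference from Suffolk was 1.27 (SE 0.91, adjusted p = 0.527), which did not pass. MX1 had a negative estimate in NWS (-0.89, SE 0.31, adjusted p = 0.123) and a positive one in Suffolk (0.87, SE 0.33, adjusted p = 0.293), a difference of -1.76 (SE 0.46, adjusted p = 0.0267, and 0.0539 without NWS synchronised replicate 9). In Fur MX1 fell by 1.21 on the log2 scale (SE 0.34, adjusted p = 0.0433), and its difference from NWS was 0.32 (SE 0.46, adjusted p = 0.975). WDR45 was lower in both Norwegian breeds, with a log2 fold change of -0.51 (SE 0.11, adjusted p = 0.0149) in NWS and -0.54 (SE 0.11, adjusted p = 0.011) in Fur.

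**Figure D5:**
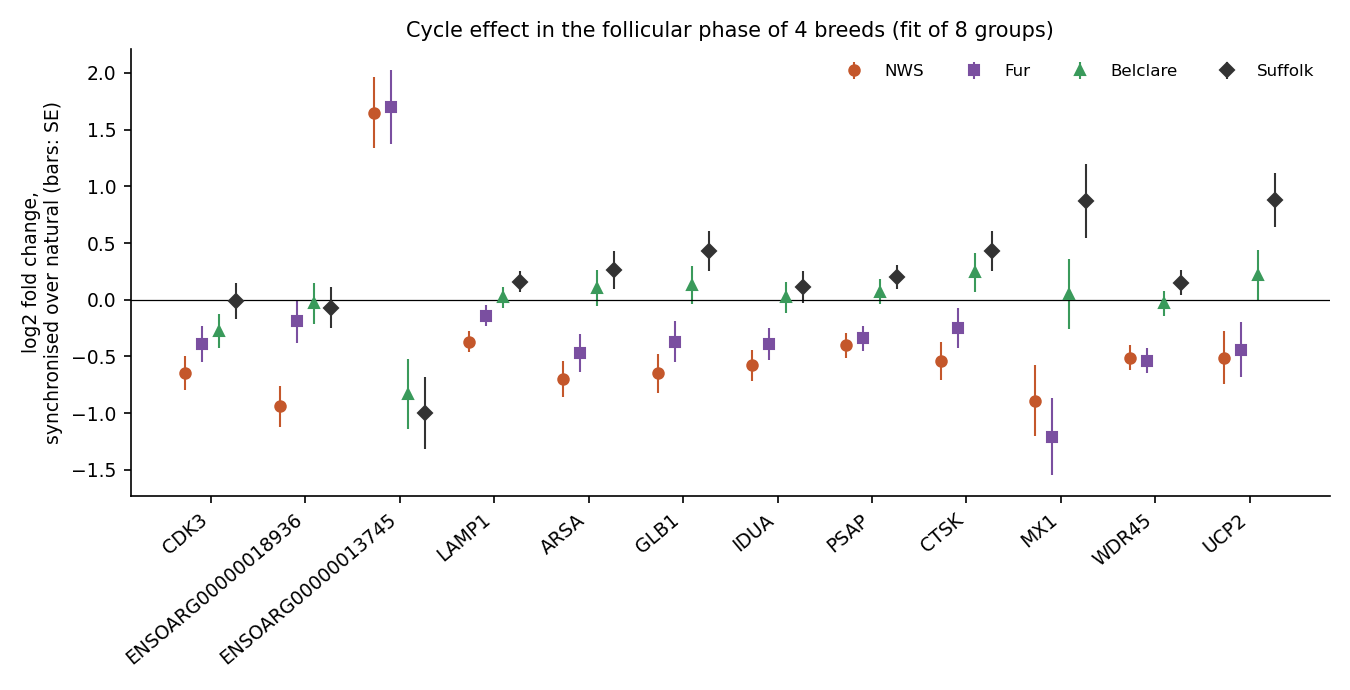
Log2 fold change, synchronised over natural, of 12 genes in the follicular phase of NWS (orange circles), Fur (purple squares), Belclare (green triangles) and Suffolk (black diamonds), with bars for the SE, from 1 fit of 8 groups. ENSOARG00000013745 is at 1.65 and 1.70 in NWS and Fur and at -0.83 and -1.0 in Belclare and Suffolk, while GLB1 is at -0.65 in NWS and 0.43 in Suffolk.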

How the data were processed

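Per the methods and the labels, the authors prepared stranded mRNA libraries, trimmed the reads, aligned them to Oar_v3.1 with STAR 2.6.1b, retained only uniquely mapping pairs and ran featureCounts (Subread 1.6.3) on the Ensembl annotation. They deposited raw counts per gene and library, without normalisation. Whether counting used the strand is not given in the sources used here, so a gene and an antisense partner may share reads, and names held by several identifiers are given with the identifier. Replicates are libraries with separate labels, which do not state that each natural library is a separate ewe, so p-values measure the spread between these libraries. No pair of NWS libraries of a group agreed within counting noise.

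Names come from the supplementary lists of the study, which name 1352 of 27054 identifiers. Genes with at least 1 CPM in at least 10 of the 20 libraries were kept (14295). The test was the quasi-likelihood F test of edgeR 4.0.16 (R 4.3.3) with TMM normalisation in a fit of both groups, and the SE is the size of the log2 fold change divided by the square root of F. Interactions used a fit of the 8 follicular groups. CPM levels use TMM library sizes over 94 libraries. Tests were checked on simulated data. The members and gene lists were chosen with earlier results of these data known. The genes named were the 5 named genes of smallest p in each direction, the DEGs, up to 3 of smallest p in each list, 29 genes from the study's breed lists and up to 5 of smallest p in each interaction. Others were chosen after their values were seen (ENSOARG00000013745, further lysosomal, interferon-responsive and endothelial genes, the named DEGs found without natural replicate 5, and GREB1, OXTR, MUC5B and MUC16). Replicate numbers were not used. Alternatives were DESeq2 1.42.0 (size factors, Wald and likelihood ratio tests), other low count filters, other fold change rules, fits with more groups, the replicate number as a block, and libraries left out. One library of another breed with conflicting labels and the other luteal libraries were not used. No sequences or coordinates were used.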

Additional observations from a re-analysis of the deposited data

Results flagged for a closer look

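The 42 genes described were examined in both groups of 10 libraries, 84 groups of values in all, for a highest or lowest library far from the others of its group by Dixon's criterion. Chance alone meets it in about 1 in 20 groups where values are normally distributed. The criterion was met in 19, each time by the highest library. CPM need not be normally distributed and some of these genes were chosen after their values were seen, so the 19 cannot be set against that rate.

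In synchronised replicate 2 the lysosomal genes ARSA (121 CPM), CTSF (171 CPM), PSAP (1701 CPM), CTSK (153 CPM), GRN (303 CPM) and GPNMB (60.5 CPM) stood far above the other synchronised libraries. In synchronised replicate 9 this held for MUC5AC (54.8 CPM), OXTR (65.1 CPM) and PLA1A (112 CPM). In natural replicate 5 it held for ATP6AP1 (178 CPM), ACTG2 (9538 CPM), DES (13280.2 CPM) and APOE (757 CPM). Other natural libraries stood apart for single genes: replicate 1 for CACNG7 (2.31 CPM) and MUC5B (170.1 CPM), replicate 3 for MUC5AC (17.5 CPM), replicate 6 for OXTR (12.8 CPM) and PLA1A (10 CPM), and replicate 7 for FUT4 (14.2 CPM).

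The cycle effect differed between breeds, at an adjusted p under 0.05 of edgeR's interaction test in the fit of 8 groups, for 1 gene between NWS and Belclare and 331 genes between NWS and Suffolk. Between NWS and Belclare it was ENSOARG00000013745 (2.48 on the log2 scale), which also differed from Suffolk (2.66). Further differences from Suffolk among the genes described were those of ENSOARG00000018936 (-0.87), LAMP1 (-0.52), IDUA (-0.69), ARSA (-0.96), GLB1 (-1.08), PSAP (-0.60), CTSK (-0.97), MX1 (-1.76), TMEM140 (-1.23), APOE (-0.89), CD177 (-4.72) and PLA1A (4.71). Without NWS synchronised replicate 9 the difference of PLA1A was 1.27 and did not pass (adjusted p = 0.527). Those of ENSOARG00000018936, IDUA, CTSK, MX1, TMEM140, APOE and CD177 did not pass without it either (adjusted p from 0.0539 to 0.0878). For CD177 the effect passed in neither NWS (-1.91, adjusted p = 0.222) nor Suffolk (2.81, adjusted p = 0.21). Its synchronised Suffolk libraries ran from 1.91 to 185 CPM with a median of 6.52. In the fit of the 4 groups of NWS and Suffolk, only ENSOARG00000013745 passed.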

How the results depend on the processing

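With all 20 libraries the counts were 2 DEGs, 0 higher and 2 lower. They were 92 (34 higher, 58 lower) with the likelihood ratio test and 95 (34 and 61) with the Wald test of DESeq2, 61 (28 and 33) in the fit of 8 follicular groups, 33 (22 and 11) without natural replicate 5 and synchronised replicate 9 (chosen after seeing the data), 1 (0 and 1) with no low count filter, 1 (1 and 0) in the fit of 3 NWS groups, and 3 (1 higher) with at least 10 counts in every library. They were 0 (0 lower) with a test against the fold change, without the natural pair of low COX-1, and with the replicate block. Leaving out 1 library gave 0 to 206 DEGs, 0 to 146 higher and 0 to 60 lower. Replicate numbers did not pair the libraries: same-numbered libraries correlated at -0.417 to 0.415 in their deviations from the group means, 3 of 10 pairs were above 0.1, and 1 synchronised library correlated best with its own number. Interaction counts against Belclare moved from 1 to 3, and against Suffolk from 331 to 1439, without NWS natural replicate 5, against Suffolk to 106 without NWS synchronised replicate 9 (both chosen after seeing the data), to 206 with the replicate block and to 1 in the fit of 4 groups; against Fur they were 0 in every fit. Of 1341 values of the described genes over the alternatives, 1318 kept the sign, and the 23 others passed in no fit. The causes were not tested. Depth limits genes near 1 CPM most.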
